A study of Paralichthys olivaceus with 2 samples.

Results

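miR-21 and miR-22a were among the 10 brightest conserved microRNAs (miRNAs, small RNAs that silence mRNAs) on 2 arrays of Japanese flounder larvae (Paralichthys olivaceus), whereas the related miR-22b lay near the detection limit. The probes were found by name, as those called miR-21 or miR-22 of zebrafish or pufferfish, with or without a letter and without a star. The rule gave 3 probes, dre-miR-21, dre-miR-22a and dre-miR-22b (dre for zebrafish, left out below), of 263 conserved probes and 987 probes in all. Because the group was proposed for its abundance, its levels and ranks are given as a description and support no test. By spot density miR-21 and miR-22a were bright among the conserved probes, and miR-22b was not. A further 2 candidate probes, PN171 and PN88, lie within the miR-21 target and serve as second measurements of it.

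The larvae were sampled at 29 days post hatching (dph), which the labels place in mid-metamorphosis, and at 17 dph, which they place before it. Larvae of both stages were anaesthetised, collected 5 to a tube and stored in an RNA preservative before extraction, and no strain, mutation or drug treatment is named for either. Each stage has 1 array, stained with Cy5, so the design has no replicate larvae and no p-value between stages was computed. The SD given with a value is over the 3 spots of a probe and covers only the spread within an array. Stage and array cannot be told apart. In RNA of whole larvae, fewer cells of a type and less RNA per cell cannot be told apart either.

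Metamorphosis turns the symmetric, swimming flatfish larva into an asymmetric bottom dweller and is driven by thyroid hormone. A mature miRNA guides a silencing complex to mRNAs that pair with its seed, the bases near its 5′ end, so miRNAs with the same seed can share targets. miR-21 is found in many vertebrate tissues. In mammals it is known for repressing Pdcd4, and in zebrafish it acts in the forming heart valves. miR-22 is also widespread and in mammals is best known from heart and skeletal muscle.

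The target sequences of the 5 probes are shown because they define what each spot can bind. They come from the deposited array tables, are written 5′ to 3′, and carry the seed (bases 2 to 8) in capitals.
miR-21: uAGCUUAUcagacugguguuggc
PN171: uAGCUUAUcagacugguguugg
PN88: uAGCUUAUcagacugguguug
miR-22a: aAGCUGCCagcugaagaacugu
miR-22b: aAGCUGCCaguugaagagcugu

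The seed of miR-21 occurred at this position in 3 of the 987 targets, the 3 shown, and that of miR-22 in 2, miR-22a and miR-22b. PN171 has 22 bases of the 23-base miR-21 target and lacks 1 at the 3′ end, and PN88 has 21 and lacks 2. The targets of miR-22a and miR-22b have 22 bases each and share 20. Counted from 1 at the 5′ end, with the miR-22a base first, they differ by C11U and A18G, both outside the seed. The pair is shown again with only the differing bases in capitals.
miR-22a: aagcugccagCugaagaAcugu
miR-22b: aagcugccagUugaagaGcugu

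A probe counted as detected when at least 50% of its spots were brighter than the mean + 3 SD of the 715 empty spots, a limit of 45.6 at 29 dph and 68.7 at 17 dph. By this rule the 29 dph array detected 132 of the 263 conserved probes and the 17 dph array 68. Median densities were 45.1 at 29 dph and 45.9 at 17 dph for conserved probes, against 228.8 at 29 dph and 63.7 at 17 dph for candidates. The detected conserved probes had a median spot CV of 6.64% at 29 dph and 8.09% at 17 dph.

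miR-21 was one of the 5 brightest conserved probes at both stages. Its 3 spots had densities of 6589, 6309 and 6090.05 at 29 dph, and of 1173, 1270.45 and 1299 at 17 dph. Every spot at 29 dph was brighter than every spot at 17 dph, before any scaling between the arrays. The means were 6329 ± 249.9 at 29 dph and 1248 ± 66.1 at 17 dph (SD, 3 spots). The probe stood at rank 4 of 263 at 29 dph and at rank 3 at 17 dph, and neither its brightest nor its dimmest spot would have moved it. Ranks set probes against each other whose binding differs, so they order brightness and not the amount of RNA.

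At 29 dph the brighter neighbour in that order was miR-192, a miRNA of gut and liver, with a mean density of 6769, and its spot range overlapped that of miR-21. The dimmer neighbour, miR-26a, had a mean of 5513, and its spot range lay apart. At 17 dph the brighter neighbour was the skeletal muscle miRNA miR-206 at 1653 and the dimmer one miR-181a at 1073, and the spot ranges of both lay apart from that of miR-21. That of miR-22a, next in order after miR-181a, overlapped it. Of the summed density above the empty-spot median over all conserved probes, miR-21 held 7.10% at 29 dph and 7.37% at 17 dph. This share does not depend on a scaling factor between the arrays, but it was computed for the miR-21 probe alone. The nested PN171 and PN88 had means of 6263 and 6134 at 29 dph, against 6329 for miR-21. At 17 dph they had 814 and 904, against 1248. Of the same totals they would hold a smaller share at 17 dph than at 29 dph, so a steady share is not read for miR-21.

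The nested probes had spot ranges that overlapped that of miR-21 at 29 dph and lay below it at 17 dph. PN171 had spot densities of 6422, 6159.9 and 6208 at 29 dph, against 867, 817 and 759 at 17 dph. PN88 had 6248, 5879 and 6274 at 29 dph, against 957, 860.1 and 896 at 17 dph. At 29 dph the spot ranges of the 3 probes overlapped pairwise. At 17 dph the highest spot of either nested probe lay below the lowest spot of miR-21. The ranks these probes would have taken among the conserved probes were 5 for both at 29 dph and 8 for both at 17 dph.

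The 3 probes therefore gave different sizes for the same stage difference. With the empty-spot median subtracted and no scaling, the density at 29 dph was 5.23 times that at 17 dph by the miR-21 probe, 8.10 times by PN171 and 7.10 times by PN88. The median of this ratio was 3.73 over the 68 conserved probes detected on both arrays and 8.26 over the 344 candidates detected on both. On the log2 scale after normalization, PN171 lay 0.50 ± 0.16 above the miR-21 probe and PN88 0.35 ± 0.18 above it (SD from the spots). With a linear trend on GC content removed, PN88 lay below the miR-21 probe, at -0.13. The probes share RNA and arrays and are not replicates of the larvae.

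miR-22a was also brighter at 29 dph than at 17 dph before scaling, but its place among the conserved probes was lower at 29 dph. Its spots had densities of 2279.8, 2465 and 2357 at 29 dph, and of 1003, 1013 and 1178 at 17 dph. All spots at 29 dph were brighter than all at 17 dph, as for miR-21. The means were 2367 ± 93.0 at 29 dph and 1065 ± 98.1 at 17 dph, a ratio of 2.28 after subtraction of the empty-spot median. Its rank was 10 of 263 at 29 dph and 5 at 17 dph. Its share of the summed conserved density was 2.63% at 29 dph and 6.25% at 17 dph.

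The neighbours of miR-22a were less clearly separated at 17 dph than at 29 dph. At 29 dph the spot range of miR-22a overlapped that of miR-181a, which had a mean of 2364, and lay apart from those of miR-203a above and miR-26b below. At 17 dph it overlapped the ranges of miR-21, miR-181a, miR-26a and miR-92a, so that its spots did not separate it from these neighbours at ranks 3 to 7.

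miR-22b, which differs from miR-22a at 2 bases, was dim at both stages and within the range of empty spots at 17 dph. Its spots had densities of 64.9, 62.8 and 61.2 at 29 dph, and of 49.7, 42.9 and 50.7 at 17 dph. All 3 spots were above the detection limit at 29 dph and 0 of 3 at 17 dph. Of the 715 empty spots, 0 were at least as bright as its mean of 62.9 at 29 dph, and 177, or 24.8%, were at least as bright as its mean of 47.8 at 17 dph. Its rank was 110 of 263 at 29 dph and 105 at 17 dph, where single spots would have placed it between 92 and 222. The longest run of letters that the miR-22b target shares with any other conserved target is 10 bases, with miR-22a, although these targets match at 20 of 22 bases. Binding of miR-22a to the miR-22b probe was not tested, so the signal of that probe at 29 dph cannot be assigned to miR-22b alone. For miR-21 the longest shared run is 9 bases, with miR-138, whose density was 67.9 at 29 dph and 58.3 at 17 dph.

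**Figure D1:**
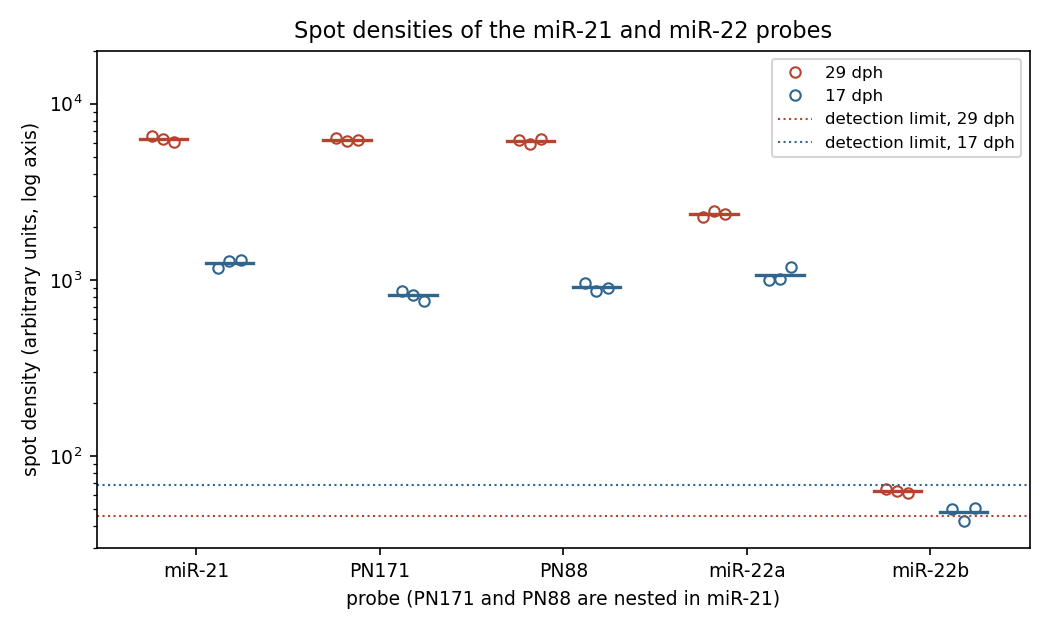
Density of each of the 3 spots (open circles) and their mean (bar) for the 5 probes on a log axis, at 29 dph (red) and 17 dph (blue), with the detection limit of each array as a dotted line. The spot ranges of the miR-21 probe and the nested PN171 and PN88 overlap at 29 dph. At 17 dph the miR-21 probe lies above both nested probes, which overlap each other. miR-22b lies above the limit at 29 dph and below it at 17 dph.

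**Figure D2:**
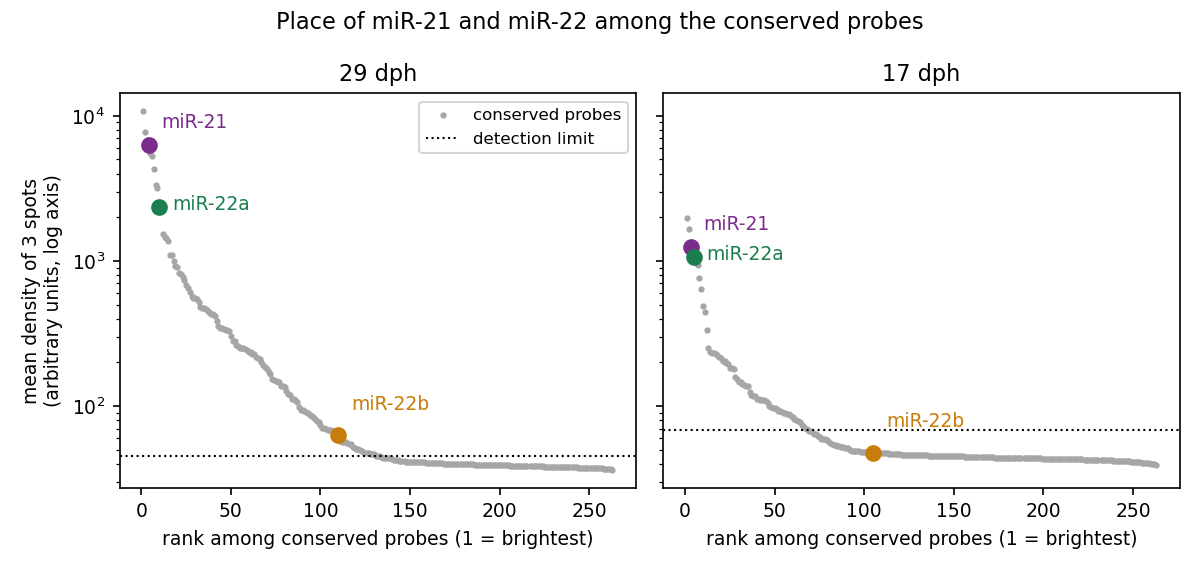
Mean density of the 263 conserved probes (log axis) against their rank at 29 dph (left) and 17 dph (right), with the detection limit of each array as a dotted line. miR-21 holds ranks 4 and 3, miR-22a ranks 10 and 5, and miR-22b ranks 110 and 105.

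To compare the stages, densities were background-corrected, put on a log2 scale and quantile-normalized over all probes, which removes any overall difference between the arrays. The log2 difference is 29 dph minus 17 dph. Calls of higher or lower at 29 dph needed detection on 1 array or both, a difference of 1 or more in size and spot ranges that lay apart. Of the 132 conserved probes tested, 23 (17.4%) were called lower and 12 (9.09%) higher. The 23 called lower, miR-22a included, were all among the 68 conserved probes detected on both arrays, so 23 of 68 is the closer background for miR-22a. Most called higher, miR-1 and miR-126 among them, were below the limit at 17 dph. For these the size of the difference has a background level on one side. Of the 3 miR-21 and miR-22 probes 1 was called lower, miR-22a. Since they were chosen for their levels on these arrays, nothing is read from that count.

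miR-21 had a normalized log2 signal of 11.20 ± 0.090 at 29 dph and 11.66 ± 0.11 at 17 dph. The difference of -0.45 was too small for a call, although the spots did not overlap. By PN171 the difference was 0.044 ± 0.084 and by PN88 -0.10 ± 0.10 (SD from the spots), both with overlapping spots. Neither nested probe therefore gave a readable direction. The median over the 132 conserved probes was -0.26, and relative to it the miR-21 probe stood at -0.20, PN171 at 0.30 and PN88 at 0.15. Against the median of the 68 conserved probes detected on both arrays, which was -0.75, miR-21 stood above, at 0.30, PN171 at 0.79 and PN88 at 0.65. With the arrays scaled by a single factor or not at all, the 3 probes stood above the median of the 132 as well, miR-21 at 1.26, PN171 at 1.85 and PN88 at 1.67. The 132 include probes below the limit at 17 dph, whose differences have a background level on one side. The unscaled ratios above the empty-spot median, 5.23, 8.10 and 7.10 in that order, were also above the median of the 68, 3.73. The side of the median on which miR-21 lay therefore depended on the probes compared and on the scaling.

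miR-22a had a normalized log2 signal of 9.77 ± 0.060 at 29 dph and 11.44 ± 0.11 at 17 dph. The difference was -1.67, with spots apart, and 8 of the 68 conserved probes detected on both arrays had a lower one. Relative to the median of the 132 conserved probes it was -1.41, and relative to that of the 68 it was -0.92. With a single scaling factor or none it stood at 0.08 relative to the median of the 132, which include probes below the limit at 17 dph. Against the 68 it was below the middle without scaling. Its ratio of densities above the empty-spot median was 2.28, and the median of the 68 was 3.73. The direction is relative to the other probes: with no scaling between the arrays the difference was 1.15, a call in the opposite direction. Over 13 ways of processing, this one included, miR-22a was called lower in 11, higher in 1 and neither in 1. The last was the scaling to the median of conserved probes detected on both arrays, where it stood at -0.45 and the median of the 132 at -0.53. Among the 11 were the scalings to the median and the 75th percentile of all probes detected on both arrays. These called 87 and 100 of the 132 lower, with miR-22a at 0.08 relative to the median of the 132. Both counts exceed the 68 detected on both arrays, so they include probes below the limit at 17 dph. Quantile normalization over probes detected on at least 1 array, also among the 11, gave the same -1.67. Most of the 11 used quantile normalization in some form, so they are not independent of each other.

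Its standing among the conserved probes also moved. It was 9th from the lowest of the 68 with quantile normalization and 28th when the arrays were scaled by a single factor or not at all. By the unscaled ratio of densities above the empty-spot median it was 16th. miR-21 was 43rd, 55th and 42nd on the same measures.

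For miR-22b the normalized log2 signal was 6.15 ± 0.018 at 29 dph and 6.17 ± 0.30 at 17 dph, a difference of -0.019 with overlapping spots. With the probe below the limit at 17 dph, the measured difference has a background level on one side, and no fold above 1 could be given as a bound. The probe was called lower in 3 of the 13 ways of processing, each scaled by a single factor, and higher in 0. No direction is read from these calls.

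**Figure D3:**
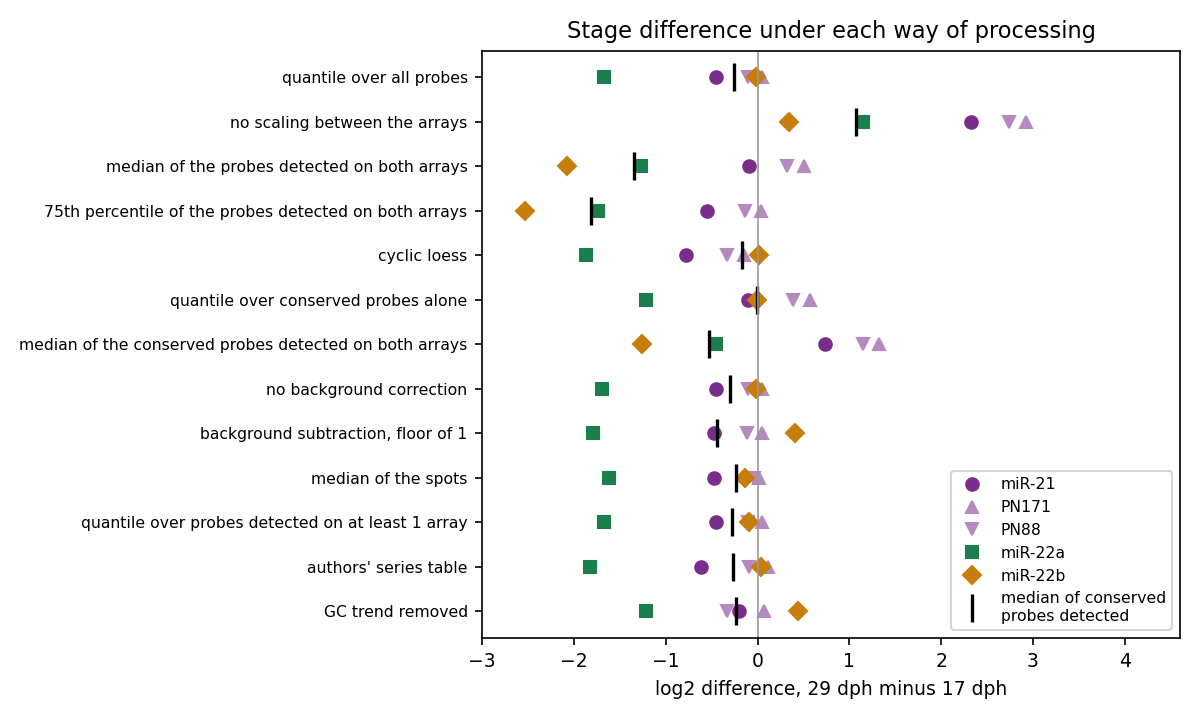
Log2 difference (29 dph minus 17 dph) of the 5 probes under quantile normalization over all probes (top row) and 12 other ways of processing, with the median of the 132 detected conserved probes as a black tick. All symbols shift with the scaling, and miR-22a (square) lies left of miR-21 (circle) in all 13 rows.

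The stage difference of miR-21 was also set against that of miR-22a. The log2 differences were 1.22 ± 0.19 apart (miR-21 minus miR-22a, SD from the spots). A single scaling factor cannot change a gap between probes of the same arrays. Quantile normalization over probes detected on at least 1 array gave the same gap as that over all probes. The 13 ways of processing therefore gave 9 distinct values, from 1.01 to 1.32. Set against miR-22a, PN171 gave a gap of 1.71, between 1.28 and 1.94 over the 13, and PN88 one of 1.56, between 0.88 and 1.72. The miR-21 signal thus stood higher relative to miR-22a at 29 dph than at 17 dph by each of the 3 probes. How much larvae of one stage vary in this contrast was not measured. The measured gaps to miR-22b were -0.43 for miR-21 and -1.65 for miR-22a, and both turned positive with a single scaling factor or none, to 1.99 for miR-21 and 0.80 for miR-22a. As miR-22b was not above background at 17 dph, no direction is read from them.

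The GC content of the target is 47.8% for miR-21, 50% for miR-22a and miR-22b, 45.5% for PN171 and 42.9% for PN88. Over the 132 detected conserved probes the log2 difference was lower by 0.95 for each 10 percentage points of GC (slope -0.95, across probes that share the 2 arrays). With this linear trend removed, miR-21 stood at -0.20 and miR-22a at -1.21, still called lower, while miR-22b stood at 0.44. PN171 then stood at 0.067 and PN88 at -0.33, on either side of the miR-21 probe.

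**Figure D4:**
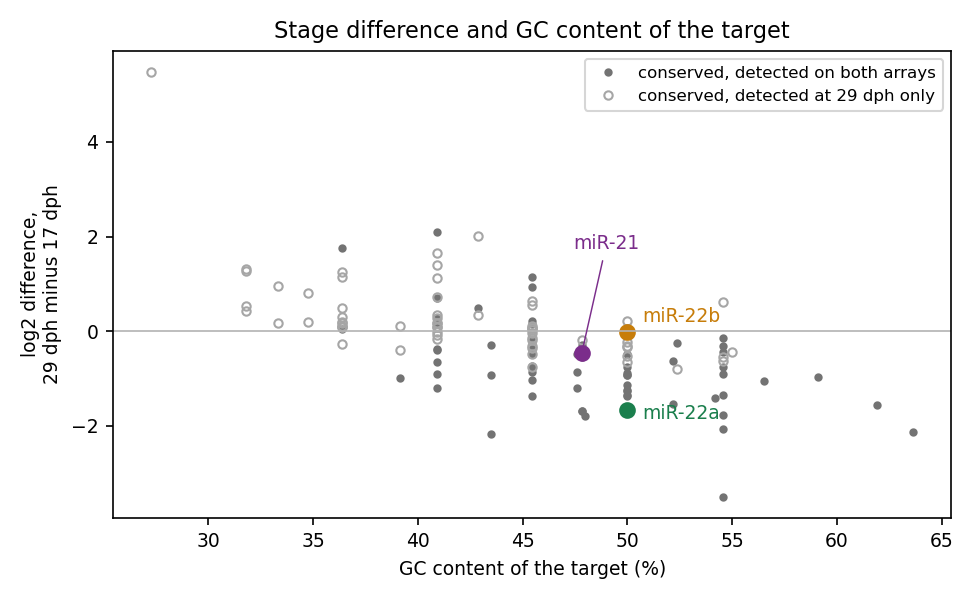
Log2 difference (29 dph minus 17 dph, quantile-normalized) against the GC content of the target in percent for the conserved probes detected on both arrays (filled) or at 29 dph only (open). miR-21 stands at -0.45, miR-22a at -1.67 and miR-22b, which was below the detection limit at 17 dph, at -0.019.

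The conserved probes most like each of these were found as the nearest in normalized log2 signal at both stages, among the probes detected on both arrays. With 2 arrays this likeness rests on 2 values per probe. Nearest to miR-22a was miR-181a at a distance of 0.0096, with densities of 2364 at 29 dph and 1073 at 17 dph and a difference of -1.68. miR-214 and miR-122 followed at 1.13 and 1.17. Nearest to miR-21 was miR-26a at 0.42, with densities of 5513 at 29 dph and 961 at 17 dph and a difference of -0.37, followed by miR-122 at 0.67 and miR-214 at 0.78. For miR-22b, itself below the limit at 17 dph, the nearest were miR-93, miR-128 and miR-10b, at distances of 1.06 to 1.42.

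Among the 10 brightest conserved probes at 17 dph, the unscaled ratio of densities above the empty-spot median ranged from 0.456 for miR-92a to 11.4 for miR-192. miR-22a, at 2.28, stood beside miR-181a at 2.26 and miR-214 at 2.23. miR-21, at 5.23, stood between these and miR-26a at 5.98, miR-206 at 6.64 and miR-122 at 7.25.

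Other miRNAs found in many vertebrate tissues (miR-16, miR-23, miR-24, miR-26, miR-27, miR-30, miR-101, miR-103 and miR-107) were set beside miR-21 and miR-22. Of 24 such probes 22 were detected, and 10 were detected at 17 dph. Of the 22, 3 were higher, 1 was lower and 18 were neither. Of those called higher, miR-16a and miR-16b were below the limit at 17 dph and miR-26b was above it. Over all 132 detected conserved probes 9.09% were called higher and 17.4% lower, the lower ones all among the 68 detected on both arrays. The median log2 difference of the detected probes of this list was -0.025, against -0.26 for all detected conserved probes. The brightest was miR-26a at both stages, and the largest difference was 1.76, for miR-26b.

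Whole larvae hold many tissues, and marker miRNAs of several moved between the arrays. Their part in the values of miR-21 and miR-22 was not tested. The sums below are not scaled between the arrays, whereas the calls use normalized values. The unscaled ratio of 29 dph to 17 dph had a median of 3.73 over the 68 conserved probes detected on both arrays. A sum that is larger at 29 dph therefore does not by itself show more of a tissue. Of all 132 detected conserved probes 9.09% were called higher and 17.4% lower, the lower ones all among those 68. The lists are short. The summed density above the empty-spot median was 19352 at 29 dph and 1932 at 17 dph for the 6 muscle probes. Of these probes 2 were lower and 1, miR-1, was higher but below the limit at 17 dph. The sum was 5230.06 at 29 dph and 721 at 17 dph for the liver probe miR-122, which was neither. For gut it was 8061 at 29 dph and 990.2 at 17 dph, with 0 of 2 detected probes higher and 1 lower. For skin and other epithelia it was 5610.2 at 29 dph and 374 at 17 dph, with 3 of 8 higher and 0 lower. Of the 8, 4 were detected at 17 dph, and miR-200b and miR-200c, both called higher, were below the limit there. Cartilage and connective tissue probes summed to 5314 at 29 dph and 2159 at 17 dph, with 0 of 4 higher and 1 lower. These sums leave out passenger strands, the other arm of a miRNA hairpin, named with a star. The name does not give the dimmer arm. At 29 dph miR-140* had 213, miR-199* 3317 and miR-9* 279, against 38.8, 772 and 167 for the unstarred arms. At 17 dph miR-199* was the dimmer arm. The starred probes of the muscle, skin and endothelial lists were dimmer than their unstarred arms at 29 dph. In the cartilage and connective tissue list miR-199* was higher, at 3317 at 29 dph and 113 at 17 dph, and miR-140* was lower. With both the sum was 8766 at 29 dph and 2293 at 17 dph, with 1 of 6 higher and 2 lower. The nervous system probes had 244 at 29 dph and 103 at 17 dph, with 0 of 2 higher and 1 lower, and with miR-9* the sum was 484 at 29 dph and 108 at 17 dph. The endothelial probes had 617 at 29 dph and 3.97 at 17 dph. The 1 detected probe, miR-126, was higher but below the limit at 17 dph. Of 4 blood probes 2 were detected at 29 dph and 0 at 17 dph, and the sum was 35.3 at 29 dph and 1.93 at 17 dph.

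In the authors' deposited table, which holds 1 processed intensity per probe, the 3 conserved probes had lower values at 29 dph than at 17 dph. miR-21 had 2105 at 29 dph and 3608 at 17 dph in the authors' deposited table, a ratio of 0.583. For miR-22a the authors' deposited table gave 780.5 at 29 dph and 3055 at 17 dph, a ratio of 0.255, and for miR-22b 10.7 at 29 dph and 14.0 at 17 dph. PN171 had a ratio of 1.01 in the authors' deposited table and PN88 one of 0.860. The median ratio in the authors' deposited table was 0.432 over the conserved probes detected on both arrays, so that miR-21 lay above it and miR-22a below it. Over all probes the median ratio in the authors' deposited table was 0.630, and miR-21 and miR-22a both lay below that. The ranks of miR-21 and miR-22a among the 263 conserved probes in the authors' deposited table were those of the densities at both stages.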

How the data were processed

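miRNA abundance was measured on 2 single-colour arrays, 1 per stage. Per the labels' protocols, total RNA of 5 larvae was extracted with Trizol, small RNAs under 300 nt were isolated by size filtration, given a poly(A) tail and joined to a tag for staining. The deposited array tables give 1 mean density per spot, a linear intensity that shows neither background subtraction nor scaling. The authors' series table holds 1 processed intensity per probe, on a linear scale, with a median over all probes of 41.0 for 29 dph and 37.1 for 17 dph. The sources used here do not give the scanner, or how that table's background was corrected and its arrays scaled.

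Densities of the 3968 spots of an array were corrected for background by limma's normexp (version 3.58.1, R 4.3.3, offset 50). Their log2 values were quantile-normalized over the 2961 probe spots, and the 3 spots per probe were averaged. Probes were kept apart and not merged by name. Alternatives were other scalings, backgrounds, spot summaries, filters, thresholds, a GC correction, passenger strands in the lists (chosen after seeing the data) and the series table. The series table entered as log2 of the intensity + 50 and was quantile-normalized again between the 2 arrays. Its log2 differences are therefore not those of the authors' own scaling. The number of arrays limits the precision. Python 3.11.15, pandas 2.3.3 and NumPy 2.4.6 were used.

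The miR-21 and miR-22 probes, the lists and the alternatives were chosen with earlier results of these data known. Named probes were these, their nested candidates, the 10 brightest of each array, their rank neighbours, the 3 nearest in signal and the brightest and most different of the broad list. Beyond these, miR-138 was named for its shared run. With the calls known, miR-16a, miR-16b, miR-126, miR-200b and miR-200c were named as well, and both arms of miR-9, miR-140 and miR-199.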

Additional observations from a re-analysis of the deposited data

How the results depend on the processing

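No paired analysis was possible because each stage has 1 array, and no replicate could be left out. Of the values given for miR-21 and miR-22, the gap between miR-21 and miR-22a was positive in the 13 ways of processing. The 4 with a single factor or none cannot differ from each other. Quantile normalization gave the same gap over all probes and over those detected on at least 1 array. The gap between miR-21 and miR-22a thus took 9 distinct values. It moved by more than the spot spread once, to 1.01 with the GC trend removed. With no scaling the log2 differences were 2.33 for miR-21, 1.15 for miR-22a, with the sign turned, 0.34 for miR-22b, 2.92 for PN171 and 2.74 for PN88. With the median of all probes that both arrays detected as the scale they were -0.089, -1.27, -2.07, 0.50 and 0.32 in that order, and with the median of the conserved ones 0.73, -0.45, -1.25, 1.32 and 1.14. The 75th percentile gave -2.54 for miR-22b. With no scaling all of these probes but miR-22b were called higher, and with the median of the conserved ones PN171 and PN88 were. In these 4 settings the gap to miR-22b was 1.99 for miR-21 and 0.80 for miR-22a. Cyclic loess gave -0.77 for miR-21, -1.87 for miR-22a, -0.15 for PN171, -0.34 for PN88 and -0.79 for the gap between miR-21 and miR-22b. Quantile normalization over conserved probes alone gave -0.10 for miR-21, -1.22 for miR-22a, 0.57 for PN171, 0.38 for PN88, and gaps to miR-22b of -0.098 for miR-21 and -1.21 for miR-22a. Background subtraction gave -1.79 for miR-22a, 0.41 for miR-22b, and gaps to miR-22b of -0.88 for miR-21 and -2.20 for miR-22a. The authors' series table, quantile-normalized again, gave -0.61 for miR-21 and -1.82 for miR-22a. It has no spots and so was called by size alone. With the GC trend removed miR-21 was at -0.20, miR-22a at -1.21, miR-22b at 0.44 and PN88 at -0.33. Apart from the single-factor settings, whose construction shifts all probes alike, the cause of these moves was not tested.

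Of the conserved probes 12 were called higher and 23 lower. The counts, higher first, were 69 and 1 with no scaling, 6 and 87 with the median of all probes that both detected, 3 and 100 with their 75th percentile, 15 and 48 with the median of the conserved ones, 16 and 12 with quantile normalization over conserved probes, 5 and 24 with cyclic loess, 33 and 46 with background subtraction, and 6 and 14 with the GC trend removed. A threshold of 1.5-fold gave 19 and 42, and one of 4-fold 3 and 4. Among all 987 probes, candidates included, miR-21 ranked 39 at 29 dph and 29 at 17 dph, miR-22a 128 at 29 dph and 36 at 17 dph, and miR-22b 608 at 29 dph and 617 at 17 dph. Ranks among conserved probes stayed within those of single spots under the other settings. With passenger strands included, an alternative chosen after seeing the data, the counts of higher and lower probes moved in the cartilage and connective tissue list alone, to 1 higher and 2 lower. Signal over background limits miR-22b, whose density was 1.62 times the empty-spot median at 29 dph and 1.05 times at 17 dph.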
